A study of Mus musculus with 9 samples.

Results

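The 10 genes followed were Ednra, Ednrb, Edn1, Pdgfra, Pdgfrb, Kit, Ret, Ngfr, Erbb3 and Nrg1. They encode surface receptors and secreted or membrane-bound ligands used by neural crest cells. The members were set by name, with earlier results of these data known, and no peak value enters the rule. They are 10 of the 21887 protein-coding genes of the mouse annotation. A ChIP-seq peak was given to a gene when its summit lay inside the gene body or, outside genes, when that gene was the nearest within 100 kb. TWIST1, a basic helix-loop-helix transcription factor, was pulled down with an antibody against it from mouse embryonic stem cells grown as embryoid bodies for 3 days and given doxycycline for 16 h. The Twist1-OE cells were Twist1-/- and carried a doxycycline-inducible Flag-Twist1 in the A2loxcre line. The Twist1-KO cells were Twist1-/-, had no inducible cassette and received the same doxycycline. The groups used here were 4 OE ChIP libraries, 2 KO ChIP libraries (numbered 2 and 3) and 1 KO input, while 2 OE inputs were not analysed here. All the cells thus lacked endogenous TWIST1, and the TWIST1 protein of the OE cells came from the transgene. Whether each line was a single clone is not given in the sources used here, and peak lists hold no expression with which the cell type label could be checked.

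Neural crest cells leave the dorsal neural tube, migrate, and form facial skeleton, pigment cells, peripheral neurons and glia. TWIST1 binds the E-box, CANNTG, as a dimer with other helix-loop-helix proteins and is known for its roles in head mesenchyme and in the transition of epithelial cells to a mesenchymal state. The receptors fall into signalling systems that crest lineages use in different ways. EDN1 signals through EDNRA in the pharyngeal arches, and EDNRB acts in enteric and pigment precursors. PDGFRA and PDGFRB are tyrosine kinase receptors of mesenchyme and of cells around vessels, KIT serves melanoblasts, RET receives the GDNF family in enteric precursors, NGFR is the low-affinity neurotrophin receptor, and NRG1 signals through ERBB3 in the glial lineage.

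Promoter sequence was available for 6 of the 10 genes, Ednra, Ednrb, Edn1, Pdgfra, Kit and Ngfr, as 250 bases before to 50 bases after an annotated start (RefSeq, GRCm38.p6). The 3 promoters with a peak in more than 1 OE list are shown, with that of Edn1, which had none, and that of Nrtn, a ligand acting through RET, which a peak covered in all 4 OE lists. Each is written 5′ to 3′ on the strand of its gene, with every E-box (CANNTG, read on both strands) in capitals.
Ngfr, chr11:95587649-95587948, minus strand: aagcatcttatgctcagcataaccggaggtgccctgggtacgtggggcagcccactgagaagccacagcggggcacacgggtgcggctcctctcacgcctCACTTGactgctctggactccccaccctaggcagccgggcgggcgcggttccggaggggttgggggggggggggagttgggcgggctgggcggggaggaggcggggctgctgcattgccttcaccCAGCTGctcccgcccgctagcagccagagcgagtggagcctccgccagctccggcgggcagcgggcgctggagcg
Pdgfra, chr5:75152001-75152300, plus strand: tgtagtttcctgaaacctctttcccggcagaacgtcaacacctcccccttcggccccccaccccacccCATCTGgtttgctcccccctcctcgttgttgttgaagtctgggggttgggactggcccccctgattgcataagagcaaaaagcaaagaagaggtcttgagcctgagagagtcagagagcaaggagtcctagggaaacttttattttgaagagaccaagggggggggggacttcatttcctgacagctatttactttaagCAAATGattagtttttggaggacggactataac
Kit, chr5:75574737-75575036, plus strand: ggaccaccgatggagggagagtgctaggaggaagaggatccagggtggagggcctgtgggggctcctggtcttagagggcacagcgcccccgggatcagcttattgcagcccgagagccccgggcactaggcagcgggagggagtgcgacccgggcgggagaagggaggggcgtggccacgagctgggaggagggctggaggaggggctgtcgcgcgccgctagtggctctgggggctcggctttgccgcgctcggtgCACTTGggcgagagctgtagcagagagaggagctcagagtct
Edn1, chr13:42301226-42301525, plus strand: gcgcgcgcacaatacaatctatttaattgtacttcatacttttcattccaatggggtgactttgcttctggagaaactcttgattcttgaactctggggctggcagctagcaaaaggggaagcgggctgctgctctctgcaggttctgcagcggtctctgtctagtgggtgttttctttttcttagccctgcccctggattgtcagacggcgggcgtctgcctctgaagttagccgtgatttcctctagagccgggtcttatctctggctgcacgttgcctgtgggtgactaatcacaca
Nrtn, chr17:56757499-56757798, minus strand: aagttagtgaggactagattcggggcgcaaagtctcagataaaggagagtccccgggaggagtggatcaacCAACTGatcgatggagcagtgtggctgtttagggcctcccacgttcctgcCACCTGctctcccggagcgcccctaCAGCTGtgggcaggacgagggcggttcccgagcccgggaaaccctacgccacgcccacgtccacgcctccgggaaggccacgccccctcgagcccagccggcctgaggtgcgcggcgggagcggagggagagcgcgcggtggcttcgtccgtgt

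The Ngfr promoter held CACTTG starting 150 bases before the start site and CAGCTG starting 25 bases before it. It was covered by peaks of OE 1, OE 2 and OE 3, with fold enrichments of 6.99, 5.17 and 6.67, and by no peak of OE 4, KO 2, KO 3 or the KO input. Their summits lay 110, 154 and 61 bases past the start, outside the printed sequence, so each was downstream of both E-boxes. The Pdgfra promoter held CATCTG starting 182 bases before the start and CAAATG 17 bases past it, and peaks of OE 2 and OE 3 covered it at folds of 7.99 and 6.99. Counted from the start, with negative positions before it, their summits lay at -182 and -159. The OE 2 summit was thus at the first base of CATCTG. At Kit, peaks of OE 2 and OE 3 with folds of 7.52 and 9.38 reached over the promoter, and the only E-box, CACTTG, began 8 bases past the start. The Kit summits lay at -334 and -315, outside the printed sequence. At Ednra and Ednrb a peak of OE 2 alone overlapped the promoter, with folds of 3.60 and 5.80. The summit lay at -76 at Ednra and at -396, outside the promoter sequence, at Ednrb. An E-box of any kind was in 72.3% of 32851 promoters of the same length, CAGCTG in 16.3%, and CATCTG, the reverse complement of CAGATG, in 17.2%, so the letters alone do not set these genes apart. In the Nrtn promoter the 3 E-boxes began 179, 129 and 104 bases before the start, and the covering peaks had folds of 77.4, 25.4, 24.3 and 60.8 in OE 1 to 4. Counted from the start, with negative positions before it, their summits lay at -24 and 7 in OE 1 and OE 4 but at -1940 and -1950 in OE 2 and OE 3, so the folds of OE 2 and OE 3 belong to a summit outside the printed sequence.

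Peaks were called by the authors in each library separately, and the lists differed widely in length. They held 22388, 106821, 87441 and 14160 peaks in OE 1 to 4, against 104 and 71 in KO 2 and KO 3, and 1774 in the KO input. The commonest background stack of fragments under a peak was 1.00 and 1.20 in OE 1 and OE 4, and 5.38 and 5.29 in OE 2 and OE 3, while the lowest recovered in KO 2 and KO 3 was 4.73 and 5.09. Whether every library was called against the same control is not known, so depth and the choice of control cannot be told apart in these values or in the folds. At that background the lowest fold a list could hold was 2.51 to 4.09 in OE lists and 3.62 to 3.66 in KO lists. Where the local background was higher, lower folds were listed, and the median listed fold was 3.51 in KO 2 and 2.88 in KO 3. Peaks covered the Twist1 gene body in all 4 OE lists and in neither KO list nor the KO input. Such peaks measure neither transcript nor protein, the nature of the null allele is not given in the sources used here, and their origin was not tested.

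The receptor and ligand genes held 30, 95, 78 and 12 peaks in OE 1 to 4, and 0 peaks in KO 2, in KO 3 and in the KO input. Of the 10 genes 9 had a peak in OE 1, 10 in OE 2, 10 in OE 3 and 7 in OE 4, against 46.6%, 80.2%, 77.1% and 36.7% of all protein-coding genes. None had a peak in a KO ChIP list or in the KO input, where 5.26% of all genes had one. Of the 10, 7 had more peaks in every OE list than in either KO list, as did 34.2% of all genes; Ednra, Edn1 and Pdgfra did not, because OE 4 held no peak there. These genes own wide stretches of genome, with a median of 174 kb that would be given to them against 45.0 kb over all genes. Per Mb they held 12.0, 37.9, 31.1 and 4.79 peaks in OE 1 to 4, against 10.5, 50.1, 41.6 and 6.72 over all genes, so with all 10 genes the density was above that of all genes in OE 1 alone. Leaving out Nrg1 changed this. The other 9 genes held 17.4, 56.7, 46.1 and 7.56 peaks per Mb in OE 1 to 4, each above the value over all genes. They still included Ngfr, whose density stood at percentile 95.1 of all genes, and no value without Ngfr was worked out. Taken gene by gene, the median density of the 10 genes was 2.18 OE peaks per 100 kb, against 2.78 over all genes.

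**Figure D1:**
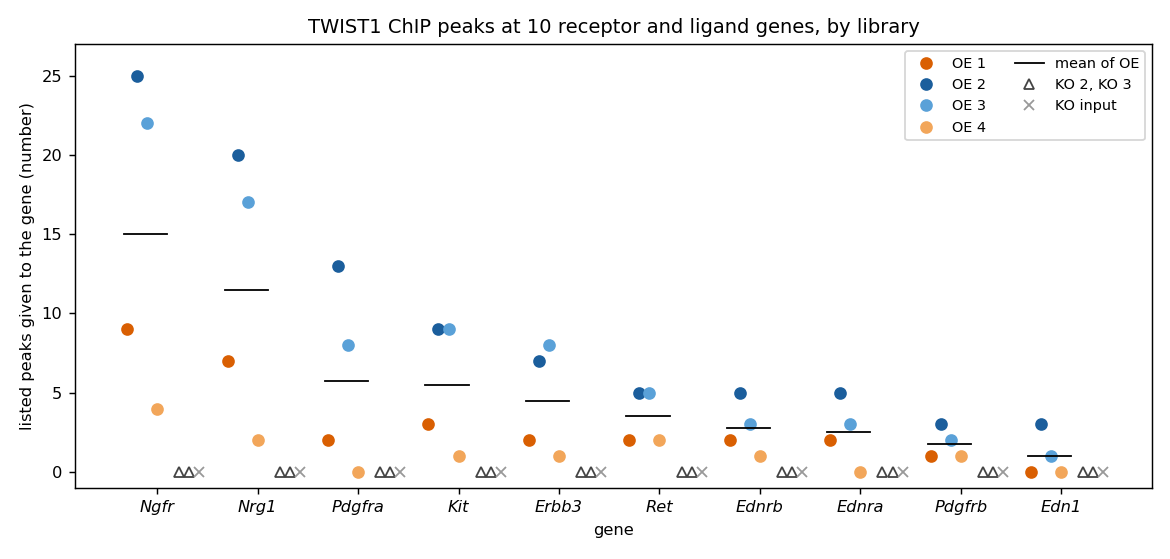
Number of peaks given to each gene (y axis) in the 4 OE ChIP libraries (filled circles, with their mean as a line), the 2 KO ChIP libraries (triangles) and the KO input (crosses), with genes on the x axis ordered by their OE mean. Ngfr reaches 25 peaks in OE 2 and Nrg1 reaches 20, while every KO and input point is at 0.

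A region was called reproducible when peaks of all 4 OE lists met in it, by at least 1 bp of overlap, and it touched no peak of a KO ChIP list or of the KO input. There were 9 such regions, and they lay at 6 of the 10 genes, Ednrb, Pdgfrb, Ret, Ngfr, Erbb3 and Nrg1, against 29.7% of all protein-coding genes with at least 1. Ngfr had 3, Ret had 2, and the others had 1 each, while Ednra, Edn1, Pdgfra and Kit had none. Over their territories this was 3.59 regions per Mb, against 4.92 per Mb over all genes. Without Nrg1, whose gene body alone spans 1084158 bp, it was 6.04 per Mb. That value still included Ngfr, with 3 regions at 34.9 per Mb, and no value without Ngfr was worked out. Of the 9 regions 3 lay inside the gene body (33.3%, against 57.9% of all reproducible regions), and 1 within 1 kb of an end of its gene (11.1%, against 34.0%).

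**Figure D2:**
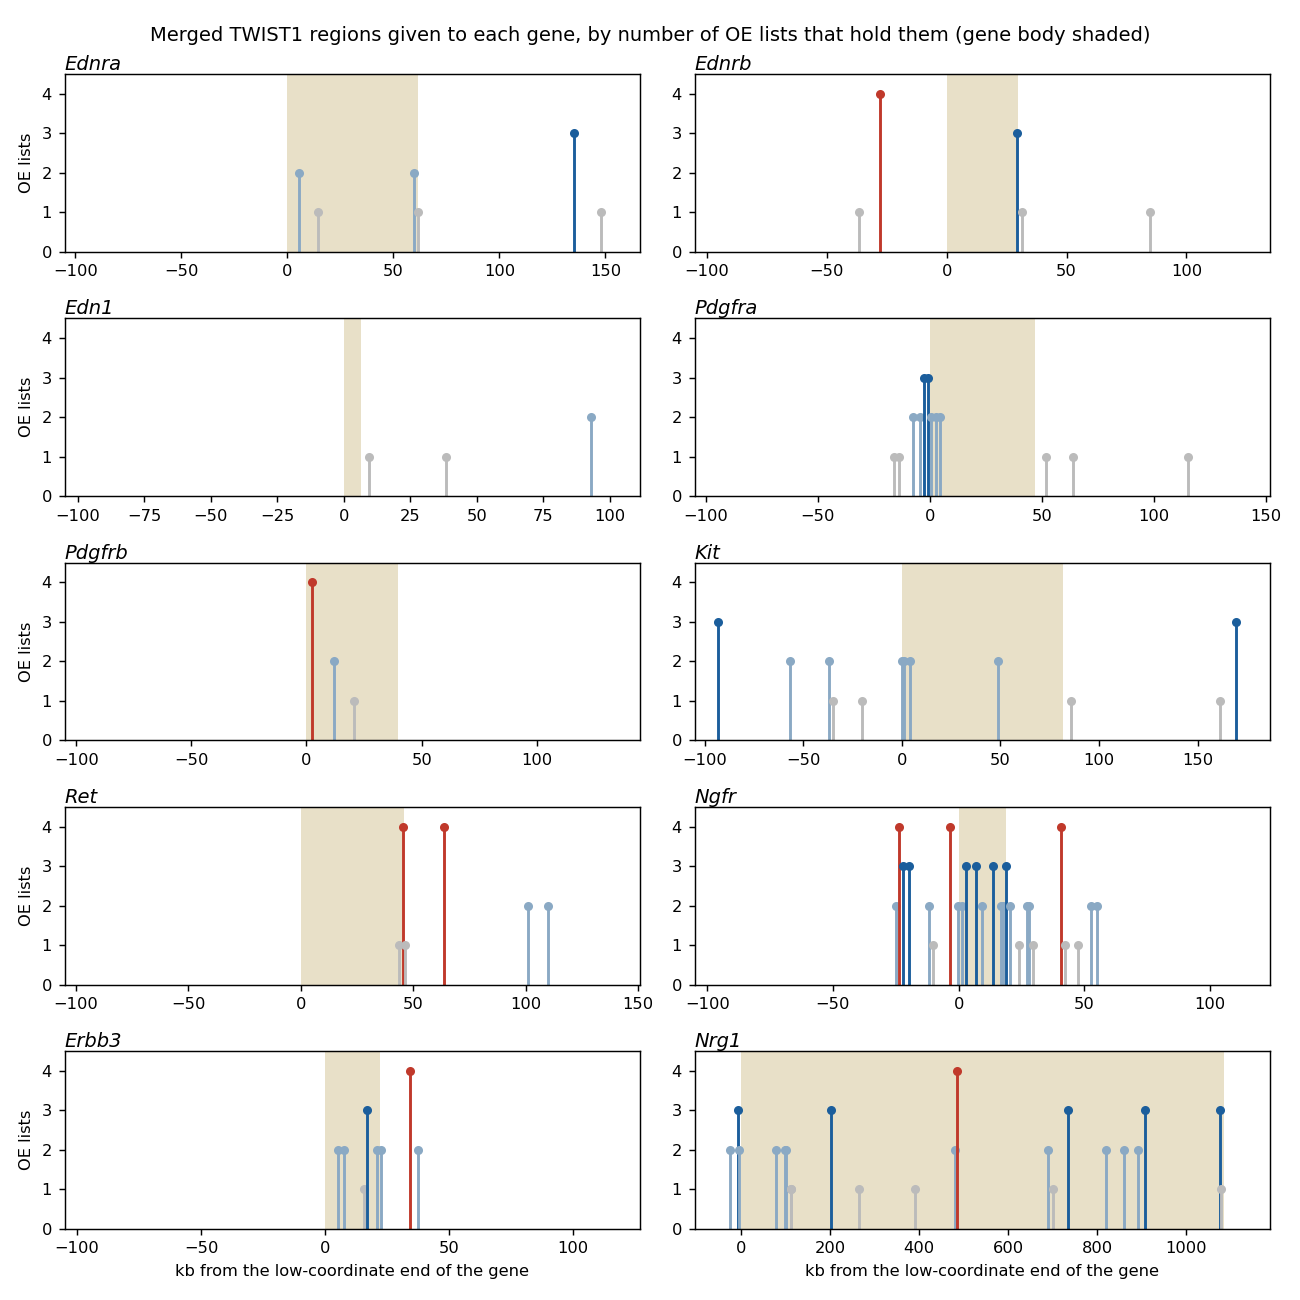
Merged OE regions at each of the 10 genes, placed by distance in kb from the low-coordinate end of the gene (x axis; gene body shaded, each panel with its own scale), with height for the number of OE lists that hold the region (y axis). The 9 regions of all 4 lists are red, the 18 of 3 lists dark blue, the 44 of 2 lists light blue and the 32 of 1 list grey.

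Among the ligands, Edn1, which encodes endothelin 1, had the fewest peaks. It held 0, 3, 1 and 0 in OE 1 to 4, and 0 in KO 2 and in KO 3, so the groups overlapped. The strongest lay 86.6 kb downstream of the gene, at folds of 11.3 in OE 2 and 8.74 in OE 3, and no peak fell inside the gene body. The difference in mean log2(peaks + 1), OE minus KO, was 0.75 with an exact permutation p of 0.733 (two-sided over 15 splits, 0.795 after Benjamini-Hochberg adjustment over 18093 genes). With 4 OE and 2 KO libraries that test cannot give a p under 0.0667, so no gene could pass 0.05. In these data 4086 genes had that smallest p, and the smallest adjusted p was 0.295.

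Nrg1 encodes neuregulin 1, the ligand of ERBB3 and ERBB4, and is the longest of the 10 genes. It had 7, 20, 17 and 2 peaks in OE 1 to 4, and 0 in KO 2 and in KO 3, so every OE library was above both KO libraries. The log2 difference was 3.29, with an exact permutation p of 0.0667 (adjusted 0.295). The number of peaks goes with the gene's length: its 0.973 peaks per 100 kb stood at percentile 26.9 of all genes, while its mean of 11.5 ± 8.43 peaks (SD, n = 4) stood at percentile 97.7. The reproducible region, chr8:32292871-32293978, lay deep inside the gene body, 486 kb from its nearest end. Its folds were 20.5, 34.3, 31.3 and 7.26 in OE 1 to 4, and the summits fell within 21 bp of each other. A further 5 regions were held by 3 OE lists. One of them, 7.70 kb inside the high-coordinate end, had folds of 23.5 in OE 1, 3.50 in OE 3 and 12.7 in OE 4 and no peak in OE 2. It was the only one of the 18 regions in 3 lists that missed OE 2; the other 17 missed OE 4 (94.4%, against 84.1% of all regions in 3 lists).

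The 2 endothelin receptors differed in whether a region reached all 4 OE lists. Ednra, the receptor through which EDN1 acts in the arches, had 2, 5, 3 and 0 peaks in OE 1 to 4, and 0 in both KO libraries (exact permutation p = 0.333, adjusted 0.518). Its strongest region lay 73.8 kb upstream, with folds of 6.99, 21.6 and 14.3 in OE 1, OE 2 and OE 3 and no peak in OE 4. Ednrb, the receptor of enteric and pigment precursors, had 2, 5, 3 and 1 peaks in OE 1 to 4, and 0 in both KO libraries (exact permutation p = 0.0667, adjusted 0.295). So the peak numbers of these receptors were equal in OE 1, OE 2 and OE 3, and they parted in OE 4 by a single peak. The reproducible region of Ednrb, chr14:103786567-103787265, lay 27.7 kb downstream of the gene, with folds of 11.7, 26.3, 21.6 and 6.61 in OE 1 to 4. Its 4 summits fell within 8 bp. A further region 629 bp inside the gene, towards its start, was held by OE 1, OE 2 and OE 3 at folds of 5.49, 5.80 and 5.40.

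The PDGF receptors, which bind the dimeric platelet-derived growth factors, differed in number and in support: Pdgfra had more peaks, and Pdgfrb had the region present in all 4 OE lists. Pdgfra had 2, 13, 8 and 0 peaks in OE 1 to 4, and 0 in both KO libraries (exact permutation p = 0.267, adjusted 0.510). Pdgfrb had 1, 3, 2 and 1 peaks, and 0 in both KO libraries (exact permutation p = 0.0667, adjusted 0.295). The merged regions of Pdgfra gathered at the low-coordinate end, from 7.75 kb upstream to 4.56 kb inside, apart from 5 that only OE 2 held. The strongest, chr5:75147798-75149464, sat 2.69 kb upstream with folds of 11.0, 52.5 and 43.2 in OE 1, OE 2 and OE 3 and no peak in OE 4, and another 943 bp upstream had folds of 7.49, 6.74 and 6.20. Pdgfrb had a single reproducible region, chr18:61046971-61048087, inside the gene, 2.40 kb from its low-coordinate end, with Gm52351 as the next gene at 2.82 kb. Its folds of 26.0, 72.3, 49.3 and 15.4 in OE 1 to 4 exceeded those of every other reproducible region of these genes in each library. The stacks behind them were 51, 460, 309 and 33 fragments, with exact Poisson 95% intervals of 38.0 to 67.1, 419 to 504, 276 to 345 and 22.7 to 46.3, which cover counting error only. The summits of all 4 libraries fell within 7 bp.

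Kit, the receptor of KIT ligand, had 3, 9, 9 and 1 peaks in OE 1 to 4, and 0 in both KO libraries (exact permutation p = 0.133, adjusted 0.322). No region reached all 4 OE lists. The single OE 4 peak lay in a region 35.1 kb upstream that no other list held. Only 2 regions were held by OE 1, OE 2 and OE 3, 93.2 kb upstream at folds of 5.96, 8.62 and 9.06, and 87.6 kb downstream at folds of 5.04, 19.9 and 11.6. Between them OE 2 and OE 3 shared a site 36.7 kb upstream with folds of 13.6 and 14.3.

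Ret encodes the signalling receptor of the GDNF family and had 2, 5, 5 and 2 peaks in OE 1 to 4, and 0 in both KO libraries (exact permutation p = 0.0667, adjusted 0.295). Its first region, chr6:118196811-118197503, lay inside the gene, 587 bp from the high-coordinate end, and had folds of 20.0, 3.29, 4.93 and 15.0. Here OE 1 and OE 4 were high and OE 2 and OE 3 low, both in fold and in rank within their lists. The other 8 regions ranked higher in both OE 2 and OE 3, the longer lists, than in OE 1 and OE 4. Over all reproducible regions 65.4% had that order and 20.4% the order of the Ret region. The stack there was 39 and 32 fragments in OE 1 and OE 4 (95% intervals 27.7 to 53.3 and 21.9 to 45.2), and 20 and 30 in OE 2 and OE 3 (12.2 to 30.9 and 20.2 to 42.8), over a background that was lower in OE 1 and OE 4. A second region, chr6:118215331-118215905, 17.9 kb beyond that end, was the weakest of the 9, with folds of 4.49, 4.07, 5.56 and 4.99. In OE 1 it rested on a stack of 8 fragments (95% interval 3.45 to 15.8).

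Ngfr, the p75 neurotrophin receptor, had the most peaks and the most regions. It held 9, 25, 22 and 4 peaks in OE 1 to 4, and 0 in both KO libraries, a log2 difference of 3.72 (exact permutation p = 0.0667, adjusted 0.295). Its mean of 15.0 ± 10.1 peaks (SD, n = 4) was at percentile 98.9 of all genes and its 17.4 peaks per 100 kb at percentile 95.1, so unlike at Nrg1 the number did not come with a long gene. The body of Ngfr is 18881 bp long. The first of its 3 regions, chr11:95544528-95545998, lay 23.6 kb downstream of the gene, with Nxph3 as the next gene at 30.7 kb, and had folds of 16.0, 24.8, 18.1 and 9.99 in OE 1 to 4. The second, chr11:95565134-95565935, was 3.28 kb downstream at folds of 9.98, 40.6, 31.5 and 5.45. The third, chr11:95609150-95609902, was 21.8 kb upstream at folds of 12.0, 17.7, 11.6 and 11.8. All 3 lay outside the gene body, while 4 regions inside it were held by OE 1, OE 2 and OE 3 and not by OE 4. The strongest of those 4 in OE 2 had folds of 7.99, 28.2 and 19.5 in OE 1, OE 2 and OE 3, and the one at the promoter shown above had the lowest OE 2 fold of the 4.

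Erbb3, which encodes the NRG1 receptor without strong kinase activity of its own, had 2, 7, 8 and 1 peaks in OE 1 to 4, and 0 in both KO libraries (exact permutation p = 0.133, adjusted 0.322). Its territory, 40.5 kb, was the smallest of the 10 genes but close to the median of 45.0 kb over all genes. Its 11.1 peaks per 100 kb stood at percentile 88.1 of all genes, and its mean number of OE peaks at percentile 85.8. The reproducible region, chr10:128601340-128601958, lay 12.0 kb beyond the high-coordinate end of the gene, with Rps26 as the next gene at 22.9 kb. Folds were 16.0, 21.8, 18.3 and 8.10 in OE 1 to 4 and the summits fell within 25 bp. Inside the gene a site held by OE 1, OE 2 and OE 3 had folds of 6.49, 21.3 and 24.8.

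**Figure D3:**
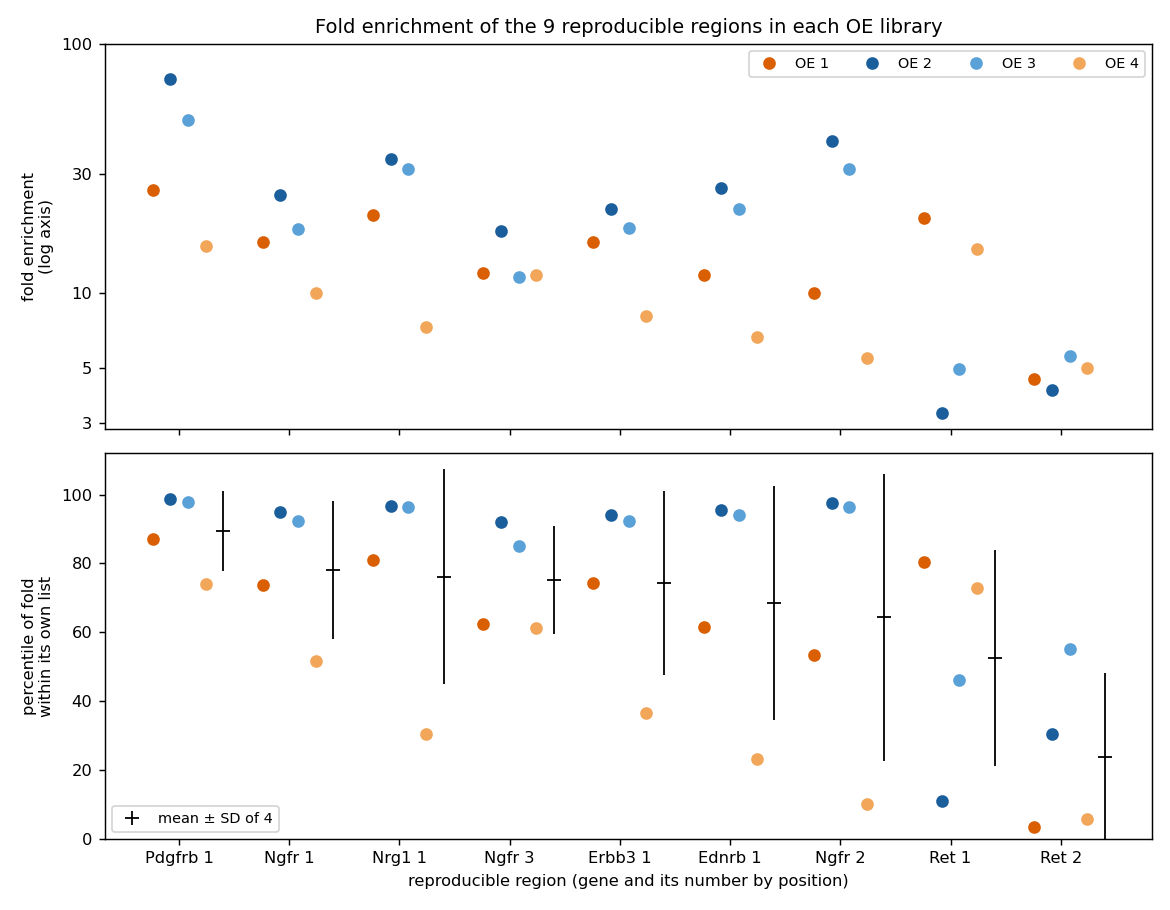
Fold enrichment on a log axis (top) and percentile of that fold within its own list (bottom) for the 9 reproducible regions in OE 1 to 4, with the mean ± SD of the 4 percentiles in black. Regions run along the x axis in order of mean percentile, and the first Ret region is the one where OE 1 and OE 4 lie above OE 2 and OE 3.

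Because a fold depends on the library, regions were ordered by the percentile of the fold within its own list, averaged over the 4 OE libraries. The best region of Pdgfrb averaged 89.5 ± 11.5 (SD, n = 4 here and below), that of Ngfr 78.2 ± 20.0, of Nrg1 76.2 ± 31.3, of Erbb3 74.3 ± 26.7, of Ednrb 68.6 ± 34.0 and of Ret 52.5 ± 31.4. No neighbours in that order differed by more than their SDs, and the largest gap, 16.0 points between Ednrb and Ret, was below the SD of either. These SDs hold differences between libraries that most regions shared, so they do not measure how firm the order is. Within each library Pdgfrb stood first, at percentiles of 87.0, 98.8, 98.0 and 74.2 in OE 1 to 4. Ednrb stood above Ret in OE 2 and OE 3 and below it in OE 1 and OE 4. The median over the 9 regions was 74.3, against 71.5 over all reproducible regions. The 3 genes whose best region was most like that of Pdgfrb in percentile, over the 4 OE libraries and among 6507 genes, were Sfxn5, Axl and Chchd6, with root mean square differences of 0.432, 0.448 and 0.572 points.

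The summits of the 9 regions spread over 7 to 260 bp between libraries, with a median of 73.0 bp, against 87.0 bp over all reproducible regions. Those at Pdgfrb, Ednrb, Nrg1 and Erbb3, 4 in all, agreed within 50 bp, as did 36.0% of all regions. In the second Ret region OE 1 alone set the spread of 260 bp. In the first Ngfr region the OE 4 summit lay between that of OE 1 and the neighbouring summits of OE 2 and OE 3. With no genome given for the summits, motifs under these regions were not analysed here.

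**Figure D4:**
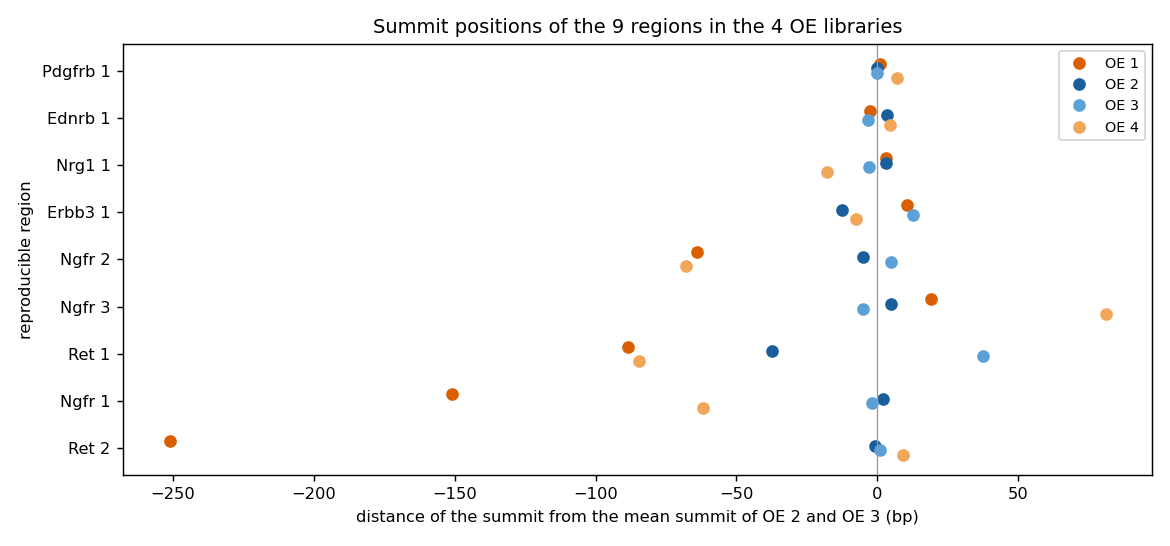
Position of the summit in each OE library for the 9 reproducible regions (rows), as the distance in bp from the mean summit of OE 2 and OE 3 (x axis). In the top 4 rows the summits of all libraries lie within 25 bp, and in the bottom row the OE 1 summit stands far from the others.

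Support across libraries was counted over all 103 merged OE regions at these genes, of which 32 were in 1 OE list, 44 in 2, 18 in 3 and 9 in 4. As shares these were 31.1%, 42.7%, 17.5% and 8.74%, against 37.2%, 46.5%, 7.07% and 9.19% of all merged regions. Ngfr held 26 of the 103 and Nrg1 22. The 44 regions of 2 lists all came from OE 2 and OE 3, as did 97.4% of all regions of 2 lists. Where OE 4 is left out of the requirement, Ednra gains 1 region, Pdgfra 2 and Kit 2, and the total is 26 at 9 genes in place of 9 at 6, while the share of all genes with a region becomes 40.4%. The absence of reproducible regions at those 3 genes therefore depends on the list of OE 4, the shortest of the OE lists. It depends on the assignment too: with all 4 OE lists required, Ednra has 1 region at a limit of 250 kb, and Pdgfra has 1 when a region goes to every gene within 100 kb.

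The other ligands, receptors and co-receptors of the same systems were counted as a list of 31 genes. Of them 17 (54.8%) had at least 1 reproducible region, 27 regions in all, beside 6 of the 10 genes above and 29.7% of all genes. These shares do not allow for territory, and no number per Mb was worked out for the list. Erbb4, for example, had a territory of 1276500 bp, against a median of 45.0 kb over all genes. The 6 with the strongest best region were Gfra3 with a mean percentile of 98.9, Sort1 with 98.6, Nrg2 with 97.0, Nrtn with 96.5, Pdgfb with 92.7 and Artn with 86.9. Gfra3 encodes the co-receptor through which artemin, the product of Artn, reaches RET, and its region 1.81 kb from the gene had folds of 97.8, 335, 235 and 52.7 in OE 1 to 4. Sort1, which encodes the NGFR co-receptor sortilin, had folds of 76.9, 182, 146 and 52.2. Artn had folds of 43.9, 10.8, 7.95 and 36.3, and Pdgfb, a ligand of PDGFRB, 83.3, 11.6, 14 and 62.2. By percentile within its own list, the best region ranked higher in OE 1 and OE 4 at Nrtn, Artn and Pdgfb, and higher in OE 2 and OE 3 at Gfra3 and Sort1. The first Ret region had the former order, with its summits within 126 bp. They lay at 118197172 and 118197176 in OE 1 and OE 4, and at 118197223 and 118197298 in OE 2 and OE 3. At Nrtn, as given above, the summits of OE 1 and OE 4 lay far from those of OE 2 and OE 3. Its ranks and mean percentile thus join different sites within 1 merged region. Summit positions in the best regions of the other partners were not compared. The ligand gene of KIT, Kitl, had 0, 6, 6 and 0 peaks in OE 1 to 4, and, like Kit, no reproducible region. None of the 31 had a peak in a KO ChIP list, and 2, Ece1 and Ntf5, had a peak in the KO input.

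**Figure D5:**
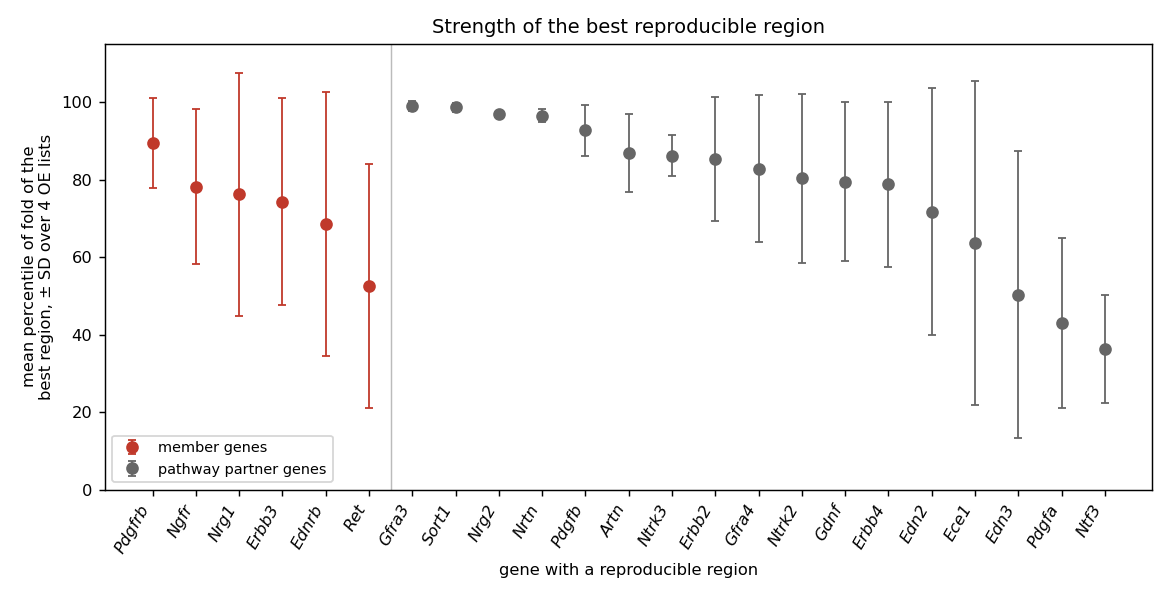
Mean percentile of fold, within its own list, of the best reproducible region of each gene, with bars of ± SD over the 4 OE libraries (y axis), for the 6 receptor and ligand genes (red, left) and the 17 partner genes (grey, right). The 5 partners from Gfra3 to Pdgfb have means above the 89.5 of Pdgfrb, and that of Nrtn joins summits at different sites.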

How the data were processed

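The members, the partner list and the rules were chosen with earlier results of these data known. The submitters' processing notes name Trimmomatic, BWA, Picard, MACS2, mm10 and GRCm38.p5. Versions, settings and the control given to the caller are not stated in the sources used here. The deposited files are 1 peak list per library, called per sample. For each peak the authors' caller gave a fold enrichment, a linear ratio over local background, and −log10 of its p-value and q-value. The deposited q-values did not exceed 0.01, and the deposited score column was left out. Folds were ranked only within a list.

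Python 3.11.15 was used with numpy 2.4.6 and scipy 1.17.1 for the values and with matplotlib 3.10.9 for the plots. Positions count from 1 on mm10, over 21 chromosomes, and genes come from a RefSeq table of GRCm38.p6. A merged region was given to a gene by its midpoint, and territories were measured on a grid of 500 bp. Depth was read from the fold and the p-value, which fix a whole-number stack of fragments. It was recovered for 90.3% to 100% of the peaks tried in each library, within 0.01 plus a share of 0.0001 on the −log10 p scale. Peak numbers were compared by exact permutation of mean log2(peaks + 1), two-sided, and adjusted by Benjamini-Hochberg over genes with a ChIP peak. All 10 genes were named, with every reproducible region, as were the 6 partners with the highest mean percentile. Kitl, Ece1, Ntf5 and the regions of fewer than 4 lists were chosen after their values were seen. The procedures were tested on simulated data. Alternatives covered the q-value limit, overlap, libraries required, list length, distance and leaving out each library.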

Additional observations from a re-analysis of the deposited data

Results flagged for a closer look

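In 1 of 28 groups of 4 OE values tested, a library stood apart from the others: the fold of the third Ngfr region, 21.8 kb upstream of the gene, was 17.7 in OE 2, against 11.6 to 12.0 in the other OE libraries. The gap to the nearest value was 0.938 of the whole range, above Dixon's 95% critical value for 4 samples. Chance alone gives about 1 in 20 such groups.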

How the results depend on the processing

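The 6 genes with a reproducible region became 3 with a −log10 q of at least 10, 3 when peaks had to cover 50% of the region, and 3 with gene bodies alone, but 10 with any 2 of 4 OE libraries and 10 with OE 2 and OE 3 alone. The 9 regions became 4 with the stricter q, 4 with the 50% overlap, 3 in gene bodies, 4 within 10 kb, 22 when given to every gene within 100 kb, 27 with at least 3 of 4 OE libraries, 71 with 2 of 4 and 70 with OE 2 and OE 3 alone. Without 1 OE replicate they ranged from 9 to 26, the 26 without OE 4. The share of all genes with a region, 29.7%, moved too: 21.2% with the stricter q, 9.06% with the 50% overlap, 20.9% in gene bodies, 42.6% with 3 of 4, 74.4% with 2 of 4, 73.9% with OE 2 and OE 3 alone and 68.9% with every gene within 100 kb. The 10 of 10 genes thus stand beside shares of 74.4% and 73.9%. The counts of regions thus depend on these settings, and causes were not tested. With the replicate block, OE minus KO within numbers 2 and 3, the log2 difference in peaks ran from 1.50 at Edn1 to 4.61 at Ngfr; with 2 pairs the smallest exact p is 0.5. The numbers are not stated to pair the libraries. Only Edn1 lost its difference, with equal list lengths and with gene bodies alone, where it had no peaks. With equal list lengths the best region averaged a percentile of 82.9 at Pdgfrb, 63.4 at Nrg1, 56.0 at Ngfr, 50.9 at Erbb3 and 47.6 at Ednrb, so that Nrg1 stood above Ngfr, and Ret kept 0 regions, as it did with summits within 100 bp. Other genes lost their regions under other settings. With the 50% overlap Ednrb, Pdgfrb and Nrg1 kept 0, while Ret kept 2. With the stricter q Ednrb, Ret and Nrg1 kept 0, and with gene bodies alone Ednrb, Ngfr and Erbb3 did. The nearest gene start was not run as an alternative, since starts were given for 6 of the 10 genes. Weak sites can be missed in every list, and how far depth or the control sets which are missed was not tested.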
